A study of Homo sapiens with 18 samples.

Results

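Eph receptors and ephrins were followed by RNA sequencing in 2 human colorectal cancer cell lines. The genes were 7 receptors (EPHA1, EPHA2, EPHA4, EPHB2, EPHB3, EPHB4 and EPHB6) and 3 ligands (EFNA1, EFNB1 and EFNB2). They were chosen from a given list by gene symbol, and all 10 were found among the 60642 symbols of the count table. The 18 libraries fell into 6 groups of 3. SW620, a line derived from a lymph node metastasis, was given RepSox (10 µM for 24 h) or the solvent DMSO. HT-29 iZEB1, an HT-29 line in which doxycycline (DOX, 1 µg/ml) switches on ZEB1, was given DOX with RepSox, DOX with DMSO, RepSox without DOX, or DMSO without DOX. All 4 HT-29 groups carried the inducible system. ZEB1 is a zinc-finger repressor of epithelial genes, and RepSox inhibits ALK5, the type I TGF-β receptor.

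Eph receptors are receptor tyrosine kinases whose ligands, the ephrins, sit on the surface of neighbouring cells, so that contact sends a forward signal into the receptor cell and a reverse signal into the ephrin cell. A-class ephrins are held by a lipid anchor and B-class ephrins span the membrane. In mouse intestinal crypts, WNT signalling maintains EphB2 and EphB3 in progenitors at the crypt base, while ephrin-B ligands mark the differentiated cells above, and this keeps the compartments apart.

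ZEB1 was measured first, as the check of the labels. It averaged 23.7 ± 0.827 CPM (counts per M of effective library size after TMM scaling) in SW620 with RepSox and 21.5 ± 2.54 CPM in SW620 with DMSO (SD, n = 3 each). In HT-29 iZEB1 it averaged 16.0 ± 1.39 CPM with DOX and RepSox, 378 ± 7.05 CPM with DOX and DMSO, 5.38 ± 0.347 CPM with RepSox without DOX, and 8.55 ± 1.59 CPM with DMSO without DOX (SD, n = 3 each). ZEB1 counts were thus 23.8-fold lower with DOX and RepSox than with DOX and DMSO (log2 fold change -4.57 ± 0.0981 SE, edgeR adjusted p = 4.02e-16). Whether these counts include RNA of the inducible copy is not stated in the sources used here, so that they check the labels only as far as that copy was counted. HT-29 lacking the inducible ZEB1 was not analysed here, so that an effect of DOX and an effect of ZEB1 cannot be told apart. The labels name a DOX treatment of 24 h in one place and 48 h in another, and do not say whether the line was 1 clone or whether replicates were separate cultures. The p-values therefore set each difference only against the variation among these libraries, and that variation may be technical. Library totals ran from 36.5 to 39.8 M counts. Epithelial markers fitted the carcinoma labels, with 7 or 8 of 10 at 1 CPM or more in each group, although CDX1 had 0 counts in SW620. KRT8 was the highest of them in each group. Fibroblast markers reached 1 CPM for 0 of 10 genes in HT-29 iZEB1 and for 2 of 10 in SW620, and leukocyte markers for 2 of 10 in HT-29 iZEB1 and 0 of 10 in SW620.

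Promoter windows show where the letters bound by ZEB1 occur among these genes, and 3 are printed: those of EPHA1 and EFNB2, which hold the motif, and that of EPHB3, which does not. Each window has 300 bases, from 250 before to 50 after the gene start, and comes from RefSeq on GRCh38.p14. All 10 genes matched, with 12 windows in all because EPHA4 and EPHB2 have more than 1. Capitals mark CAGGTG or its reverse complement CACCTG, the E-box that ZEB1 binds. The windows lie at chr7:143408807-143409106 (minus strand) for EPHA1, chr13:106535613-106535912 (minus strand) for EFNB2 and chr3:184561535-184561834 (plus strand) for EPHB3.
EPHA1: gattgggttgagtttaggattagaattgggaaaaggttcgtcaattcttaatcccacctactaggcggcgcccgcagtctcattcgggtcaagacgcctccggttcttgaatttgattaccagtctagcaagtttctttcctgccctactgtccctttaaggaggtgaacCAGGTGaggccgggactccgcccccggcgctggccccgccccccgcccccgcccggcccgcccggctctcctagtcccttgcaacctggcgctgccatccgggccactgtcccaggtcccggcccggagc
EFNB2: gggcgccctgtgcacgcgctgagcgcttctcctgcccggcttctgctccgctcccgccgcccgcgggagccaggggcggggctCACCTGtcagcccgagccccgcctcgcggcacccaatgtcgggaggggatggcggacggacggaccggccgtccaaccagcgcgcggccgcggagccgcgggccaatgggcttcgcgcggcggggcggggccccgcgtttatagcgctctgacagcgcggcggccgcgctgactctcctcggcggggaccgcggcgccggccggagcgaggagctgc
EPHB3: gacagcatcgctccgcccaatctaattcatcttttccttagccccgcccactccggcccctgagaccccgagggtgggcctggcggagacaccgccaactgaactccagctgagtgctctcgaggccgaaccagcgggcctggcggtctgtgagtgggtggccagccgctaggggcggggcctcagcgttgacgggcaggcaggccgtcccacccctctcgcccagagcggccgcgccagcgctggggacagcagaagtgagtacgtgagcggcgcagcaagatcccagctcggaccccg
The E-box started 80 bases before the gene start in EPHA1 and 167 bases before it in EFNB2. EPHB2 held the E-box as well, so that 3 of the 10 genes had it in at least 1 window. Of all 35116 RefSeq windows searched on both strands, 20.6% (7231) had it. That share is per window and not per gene, so the 2 are not on the same measure. The TCF/LEF core CTTTGAT, or ATCAAAG on the other strand, was in 0 of the 12 windows and in 2.62% (919) of all windows. No match of the 2 motifs therefore overlapped. A match describes these letters alone, and no binding was measured.

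**Figure D1:**
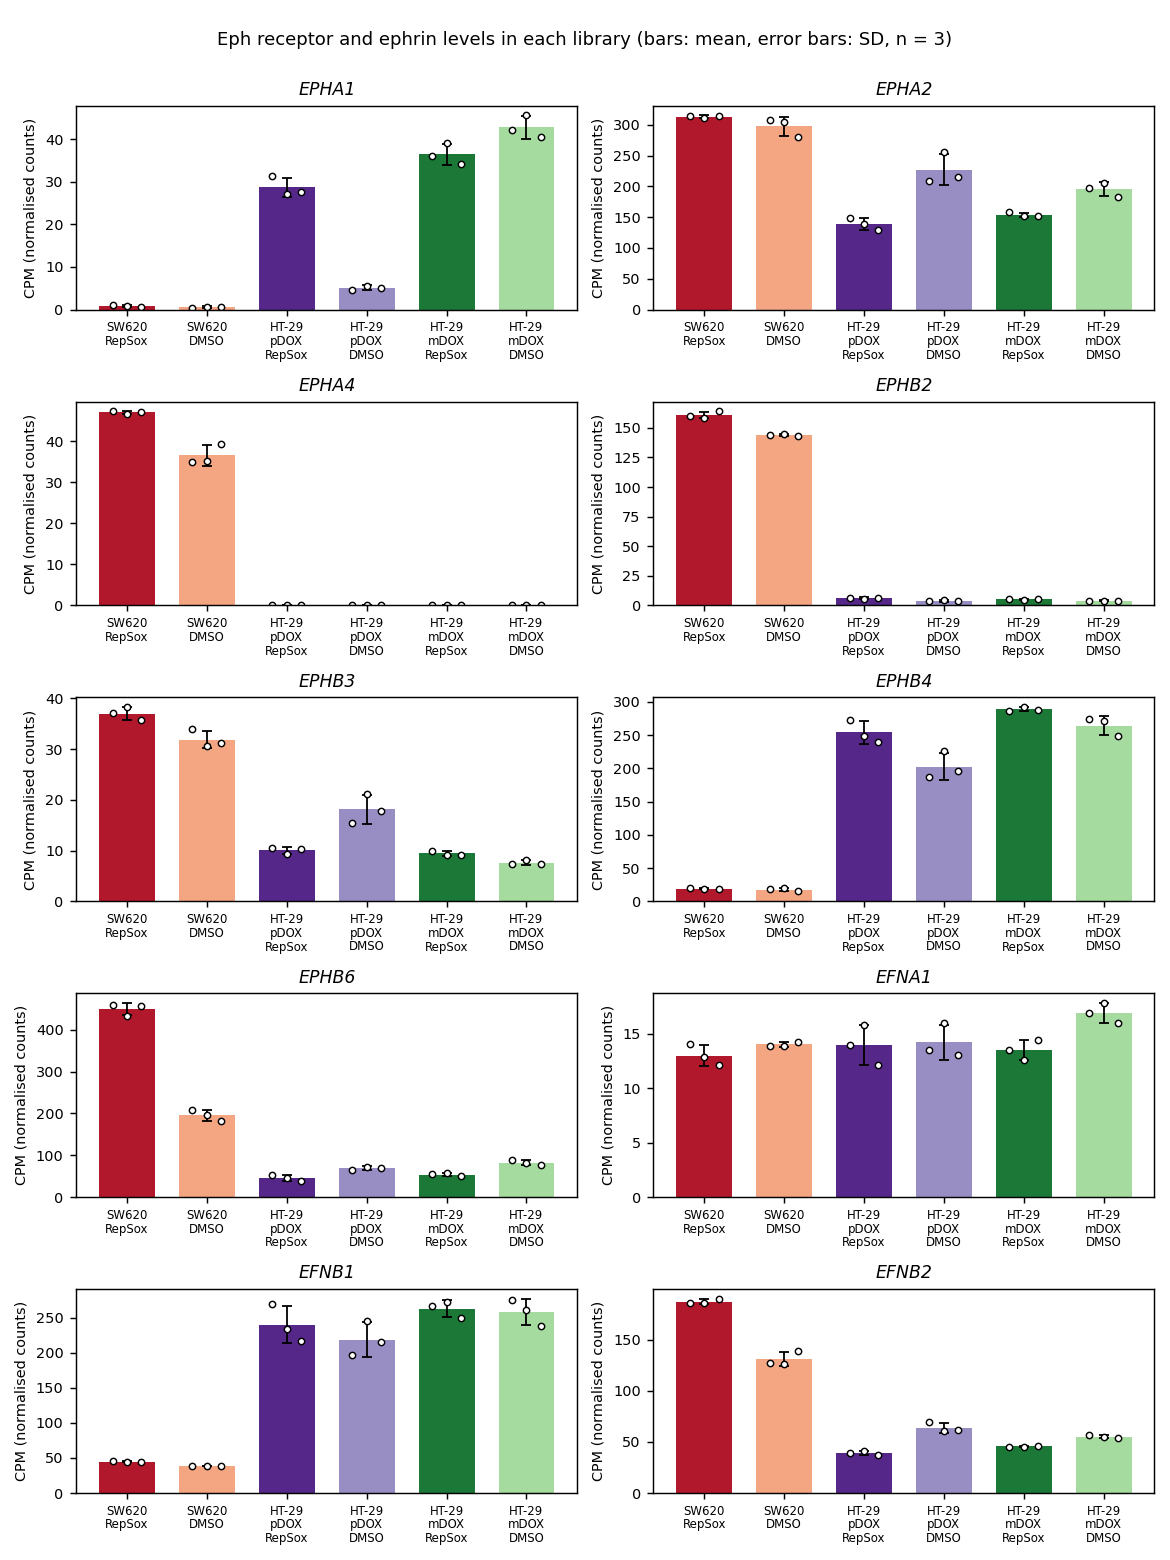
Level of each Eph receptor and ephrin, in CPM on a linear axis with its own scale for each gene. Bars are means, error bars are SD and points are the 3 libraries of each group, where pDOX is with DOX and mDOX is without DOX. EPHA1 stood at 4.57 to 5.64 CPM in HT-29 iZEB1 with DOX and DMSO and at 27.1 to 45.6 CPM in the other HT-29 groups.

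Levels were first set side by side per kilobase of merged exon, the scale on which different genes can be compared. In SW620 with DMSO, EPHA2 was highest at 71.5 ± 3.77 CPM per kb, followed by EPHB6 at 36.7 ± 2.58 and EFNB2 at 26.1 ± 1.42 CPM per kb (SD, n = 3). EFNB1 and EPHB2 followed at 11.6 ± 0.0544 and 11.5 ± 0.0594 CPM per kb, which did not differ beyond their spread. With RepSox, EPHB6 was highest in SW620 at 84.4 ± 2.65 CPM per kb, whereas EPHA2 was highest with DMSO. In HT-29 iZEB1 with DMSO without DOX, EFNB1 led at 77.9 ± 5.63 CPM per kb. EPHA2 at 47.0 ± 2.68 and EPHB4 at 41.1 ± 2.19 CPM per kb came next, followed by EPHB6 at 15.4 ± 1.06 CPM per kb. Among these 10 genes, the HT-29 cells thus held mainly a B-class ligand with the receptors EPHA2 and EPHB4, and the SW620 cells mainly EPHA2, EPHB6 and EFNB2. Other family genes were not ranked per kilobase. The A-class ligand EFNA2 had 17.9 CPM over 0.949 kb of merged exon in HT-29 iZEB1 with DMSO without DOX.

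**Figure D2:**
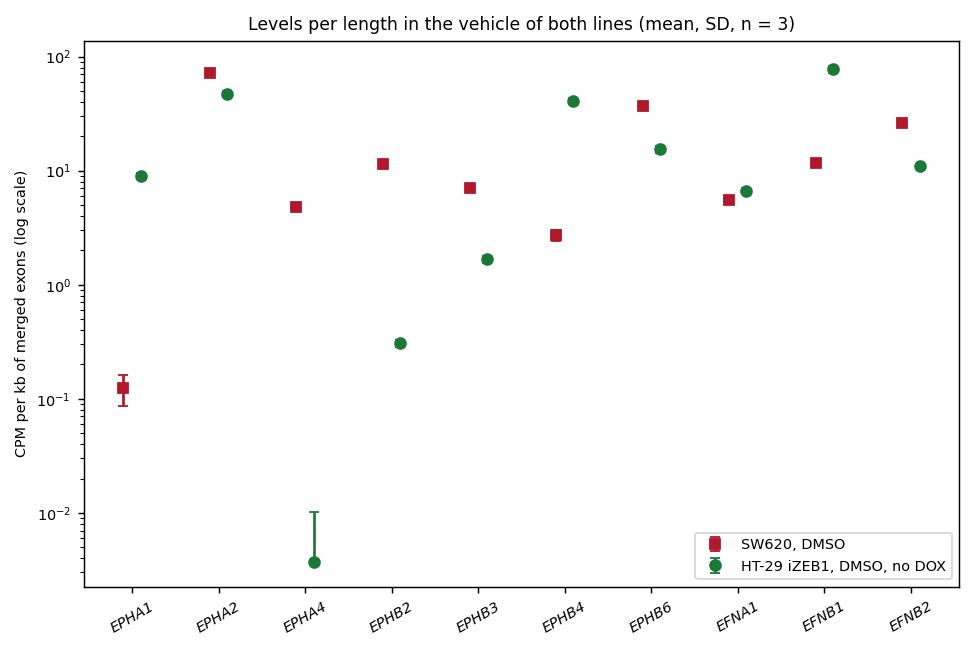
Mean level per kilobase of merged exon in SW620 with DMSO and in HT-29 iZEB1 with DMSO without DOX, on a log axis, with SD over 3 libraries as error bars. The lower error bar of EPHA4 in HT-29 iZEB1 is left out because the mean minus the SD is below 0. EPHA1, EPHB4 and EFNB1 were lower in SW620, and EPHA4 and EPHB2 were higher there.

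The first comparison asked what DOX did to these genes in HT-29 iZEB1 with DMSO. EPHA1, an A-class receptor of epithelia, fell 8.33-fold and EPHB3, a B-class receptor of the crypt base, rose 2.40-fold. The other changes were 1.30-fold or less. Of the 9 genes tested, 3 rose and 4 fell. Over all 16978 genes tested, 40.4% were called, with 19.2% higher and 21.1% lower. EPHA4 was not tested in HT-29 iZEB1, because its libraries held 0 to 3 counts each. The median log2 fold change of the 9 genes was -0.23, against 0.0020 for all genes. The summed level of 10 epithelial markers ran from 4437 to 4866 CPM with DOX and DMSO and from 8744 to 9903 CPM with DMSO without DOX (1 of 10 rose and 7 fell), and its part in these changes was not tested. These are bulk samples, in which fewer cells of a type and less RNA per cell cannot be told apart.

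EPHA1 had 4.57, 5.64 and 5.14 CPM in the 3 libraries with DOX and DMSO, against 42.2, 45.6 and 40.5 CPM in those with DMSO without DOX. Every library with DOX was below every library without it. The log2 fold change was -3.06 ± 0.0968 (SE, edgeR quasi-likelihood test, Benjamini-Hochberg adjusted p = 2.49e-14). Among 10801 genes that reached 5 CPM in either group, 18 fell by more. EPHA1 (ENSG00000146904.8) lies at chr7:143390289-143408892 on the minus strand in GENCODE 29, and 82 of its exon bases overlap ZYX on the other strand. ZYX, a focal adhesion protein, had a log2 fold change of 0.04 ± 0.0863 (SE, edgeR adjusted p = 0.734) in the same comparison.

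EPHB3 showed the opposite direction. It had 15.5, 21.2 and 17.8 CPM with DOX and DMSO, against 7.28, 8.20 and 7.29 CPM with DMSO without DOX. The groups did not overlap, and the log2 fold change was 1.26 ± 0.111 (SE, edgeR adjusted p = 3.52e-08). Among the same 10801 genes, 111 rose by more. EPHB3 (ENSG00000182580.2) lies at chr3:184561784-184582409 on the plus strand in GENCODE 29.

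EPHB4, the receptor that pairs with EFNB2 in blood vessels, had 187, 226 and 196 CPM with DOX and DMSO, against 274, 271 and 248 CPM with DMSO without DOX. It fell by 0.38 ± 0.0716 on the log2 scale (SE, edgeR adjusted p = 3.07e-04), with no overlap between the groups. SLC12A9, which shares 69 exon bases with EPHB4 on the other strand, had a log2 fold change of -0.16 (adjusted p = 0.177, edgeR). The endothelial markers were checked beside EPHB4 and EFNB2. Only TEK of 10 reached 1 CPM in HT-29 iZEB1, at 9.72 CPM with DOX and DMSO and 2.34 CPM with DMSO without DOX, and KDR and CDH5, which define that cell type, were at or near 0. The summed endothelial level ran from 10.4 to 11.6 CPM with DOX and DMSO, and from 2.40 to 3.48 CPM with DMSO without DOX, and its part in the result was not tested.

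The remaining called genes changed little. EPHA2, a receptor of epithelial cells that binds EFNA1, had 209, 255 and 215 CPM with DOX and DMSO, against 198, 205 and 183 CPM with DMSO without DOX, a log2 fold change of 0.22 ± 0.0750 (SE, edgeR adjusted p = 0.0254). EFNB2, a transmembrane ligand, stood at 69.5, 60.5 and 61.9 CPM with DOX and DMSO, against 56.5, 55.2 and 53.8 CPM with DMSO without DOX, a log2 fold change of 0.22 ± 0.0671 (SE, edgeR adjusted p = 0.0137). Its antisense neighbour AL138689.2 shares 1313 exon bases with it and had a log2 fold change of -0.0067 (edgeR adjusted p = 0.995). EPHB6, a receptor with an inactive kinase domain, had 64.1, 73.1 and 69.0 CPM with DOX and DMSO, against 87.9, 81.4 and 76.7 CPM with DMSO without DOX, and fell by 0.25 ± 0.0900 (SE, edgeR adjusted p = 0.0337). For these 3 genes the groups did not overlap, and the share of all genes without overlap was not computed in this comparison. EFNB1, the other B-class ligand, fell by 0.23 ± 0.0859 on the log2 scale (SE, edgeR adjusted p = 0.0364), but 1 library with DOX lay within the range of those without. EFNA1, the A-class ligand, had a log2 fold change of -0.25 ± 0.104 (SE, edgeR adjusted p = 0.0666), and EPHB2, the second crypt-base receptor, of 0.02 ± 0.146 (SE, edgeR adjusted p = 0.945). These 4 small calls depended on single libraries. The EPHA2 call was lost without replicate 2 of DOX with DMSO (edgeR adjusted p = 0.149), and without replicate 1 or 3 of DMSO without DOX (0.0542 and 0.115). The EFNB2 call was lost without replicate 1 of DOX with DMSO or replicate 3 of DMSO without DOX (edgeR adjusted p = 0.0935 and 0.0502). The EPHB6 call was lost without replicate 1 or 3 of DOX with DMSO (edgeR adjusted p = 0.131 and 0.0747) and without replicate 1 or 2 of DMSO without DOX (0.153 and 0.0689). The EFNB1 call was lost without the same 4 libraries (edgeR adjusted p = 0.18, 0.0975, 0.157 and 0.0884). With scaling to library totals alone these 2 calls were lost as well (edgeR adjusted p = 0.118 for EPHB6 and 0.128 for EFNB1). EFNA1 was called without replicate 2 of DOX with DMSO (edgeR adjusted p = 0.0136).

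The next comparison asked what RepSox did to cells that also had DOX. EPHA1 rose 5.57-fold, and EPHB3, EFNB2, EPHA2 and EPHB6 fell 1.52-fold to 1.82-fold. EPHB2 and EPHB4 rose 1.56-fold and 1.25-fold. Of the 9 genes tested, 3 rose and 4 fell, and over all 16978 genes 52.2% were called (26.8% higher and 25.5% lower). The median log2 fold change was -0.03, against -0.0082 for all genes. This comparison shares the libraries with DOX and DMSO with the first. ZEB1 counts, which may or may not include the inducible copy, were 23.8-fold lower with RepSox in the same libraries, and their part in these changes was not tested. The summed epithelial markers ran from 9963 to 10920 CPM with DOX and RepSox and from 4437 to 4866 CPM with DOX and DMSO, and their part was not tested either.

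EPHA1 had 31.3, 27.1 and 27.7 CPM with DOX and RepSox, against 4.57, 5.64 and 5.14 CPM with DOX and DMSO, a log2 fold change of 2.48 ± 0.0968 (SE, edgeR adjusted p = 5.63e-13). Among 10823 genes that reached 5 CPM in either group, 26 rose by more. The groups were far apart, and the RepSox libraries lay below the 40.5 to 45.6 CPM of DMSO without DOX. EPHB3 had 10.6, 9.24 and 10.4 CPM with DOX and RepSox, against 15.5, 21.2 and 17.8 CPM with DOX and DMSO, and fell by 0.86 ± 0.108 on the log2 scale (SE, edgeR adjusted p = 2.03e-06). EFNB2 had 39.0, 41.5 and 37.0 CPM with DOX and RepSox, against 69.5, 60.5 and 61.9 CPM with DOX and DMSO, and fell by 0.72 ± 0.0680 (SE, edgeR adjusted p = 5.92e-08). In both ligand and receptor the RepSox libraries were all below the DMSO libraries.

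EPHA2 showed 148, 139 and 129 CPM with DOX and RepSox, against 209, 255 and 215 CPM with DOX and DMSO, and fell by 0.72 ± 0.0755 (SE, edgeR adjusted p = 2.4e-07). EPHB6 showed 52.0, 46.0 and 38.7 CPM with DOX and RepSox, against 64.1, 73.1 and 69.0 CPM with DOX and DMSO, and fell by 0.60 ± 0.0913 (SE, edgeR adjusted p = 1.93e-05). EPHB2, at 6.46, 5.45 and 6.44 CPM with DOX and RepSox against 3.505, 4.62 and 3.55 CPM with DOX and DMSO, rose by 0.64 ± 0.140 (SE, edgeR adjusted p = 7.9e-04). EPHB4, at 273, 249 and 240 CPM with DOX and RepSox against 187, 226 and 196 CPM with DOX and DMSO, rose by 0.32 ± 0.0715 (SE, edgeR adjusted p = 0.0011). The groups did not overlap in these 7 genes. Of all genes 52.2% were called in this comparison, and the share of all genes without overlap was not computed. EFNA1 and EFNB1 had log2 fold changes of -0.03 ± 0.105 and 0.12 ± 0.0859 (SE, edgeR adjusted p = 0.803 and 0.243). EFNB1 was called without replicate 2 of DOX with DMSO (edgeR adjusted p = 0.036).

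**Figure D3:**
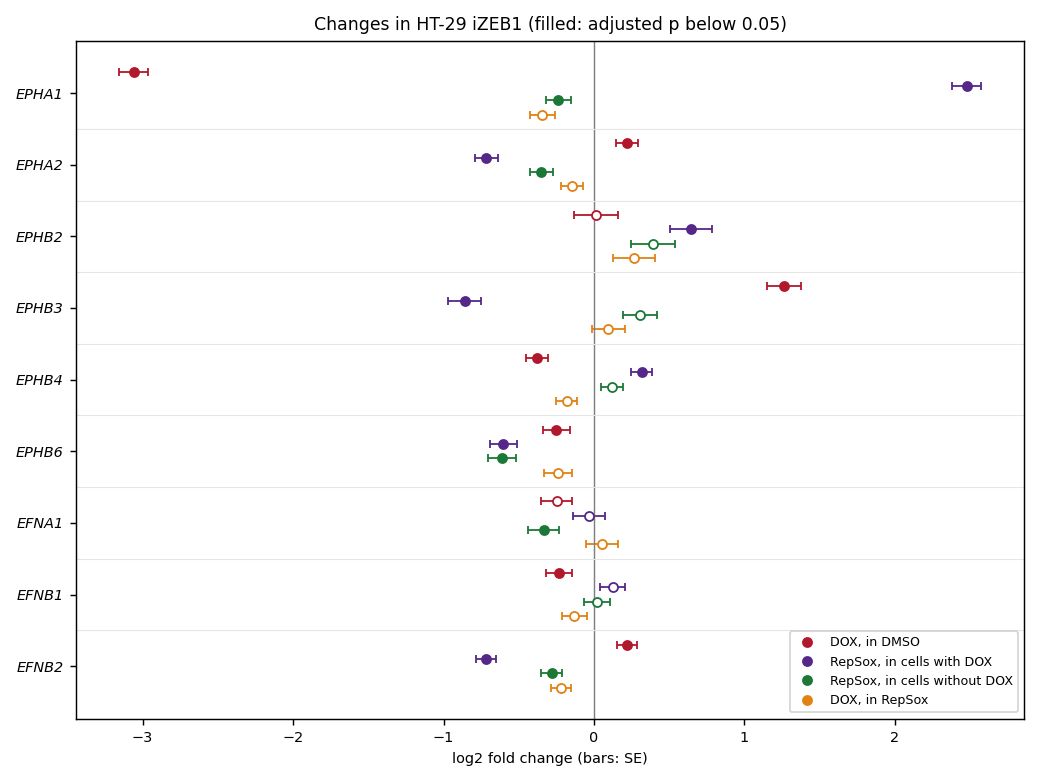
Log2 fold change of 9 genes in 4 comparisons in HT-29 iZEB1, with SE as bars, and filled points for an edgeR adjusted p below 0.05. EPHA1 sits at -3.06 for DOX in DMSO and at 2.48 for RepSox in cells with DOX, and EPHB3 at 1.26 and -0.86.

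Without DOX, RepSox lowered EPHB6, EPHA2, EFNA1, EFNB2 and EPHA1, and no rise passed the test. Of 9 genes, 0 rose and 5 fell, while 25.3% of all 16978 genes were called (12.5% higher and 12.8% lower). At an unadjusted p below 0.05, 2 genes rose, and DESeq2 also called 2 as higher, EPHB2 and EPHB3. The median log2 fold change was -0.24, against -0.0076 for all genes. In the same libraries the summed endothelial markers ran from 8.18 to 9.52 CPM with RepSox without DOX and from 2.40 to 3.48 CPM with DMSO without DOX, with TEK 3.53-fold higher (edgeR adjusted p = 6.38e-08), PECAM1 called lower and CDH5 and KDR at 0 counts in both groups. Of 10 epithelial markers 0 rose and 4 fell, with sums of 9459 to 9781 CPM with RepSox without DOX and 8744 to 9903 CPM with DMSO without DOX. The part of these markers in the changes was not tested. EPHB6 had 54.8, 57.0 and 49.98 CPM with RepSox without DOX, against 87.9, 81.4 and 76.7 CPM with DMSO without DOX, and fell by 0.61 ± 0.0909 (SE, edgeR adjusted p = 7.41e-05). EPHA2 had 158, 152 and 152 CPM with RepSox without DOX, against 198, 205 and 183 CPM with DMSO without DOX, and fell by 0.35 ± 0.0753 (SE, edgeR adjusted p = 0.00207). EFNB2 had 45.3, 45.1 and 46.4 CPM with RepSox without DOX, against 56.5, 55.2 and 53.8 CPM with DMSO without DOX, and fell by 0.28 ± 0.0679 (SE, edgeR adjusted p = 0.00487). The groups of these 3 genes did not overlap. That held for 8 of the 9 genes, among them EPHB2, EPHB3 and EPHB4, which were not called. The share of all genes without overlap was not computed.

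EFNA1 and EPHA1 were nearer the threshold. EFNA1 had 13.5, 12.6 and 14.4 CPM with RepSox without DOX, against 16.9, 17.8 and 16.0 CPM with DMSO without DOX, and fell by 0.33 ± 0.105 (SE, edgeR adjusted p = 0.0248). EPHA1 had 36.2, 39.1 and 34.2 CPM with RepSox without DOX, against 42.2, 45.6 and 40.5 CPM with DMSO without DOX, and fell by 0.24 ± 0.0832 (SE, edgeR adjusted p = 0.0437). The EFNA1 call was lost without replicate 1 or 2 of RepSox without DOX (edgeR adjusted p = 0.0664 and 0.112) or without replicate 1 or 2 of DMSO without DOX (0.0647 and 0.0913). The EPHA1 call was lost without replicate 1 or 3 of RepSox without DOX (edgeR adjusted p = 0.114 and 0.183) or without replicate 1 or 2 of DMSO without DOX (0.0911 and 0.172). It was also lost without replicate 2 or 3 of DOX with RepSox (0.0531 and 0.0501) and without replicate 3 of DOX with DMSO (0.0544), with no filter on low counts (0.0632) and with all 18 libraries in one fit (0.0614), all by edgeR. EPHB2 and EPHB3 had log2 fold changes of 0.39 ± 0.144 and 0.31 ± 0.115 (SE, edgeR adjusted p = 0.0541 and 0.0582). EPHB2 was called without replicate 2 of RepSox without DOX (edgeR adjusted p = 0.0354), and both EPHB2 and EPHB3 were called without replicate 2 of DOX with DMSO (0.0323 and 0.0261). EPHB3 was called without replicate 1 of that group as well (0.0367). EPHB4 and EFNB1 stood at 0.12 ± 0.0714 and 0.02 ± 0.0858 (SE, edgeR adjusted p = 0.249 and 0.906).

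In the presence of RepSox, DOX moved none of the 9 genes past the threshold of edgeR, while 0.477% (81) of 16978 genes were called (0.0942% higher and 0.383% lower). At an unadjusted p below 0.05, 4 of the 9 were lower and 0 higher, and DESeq2 called 1, EPHA1. The median log2 fold change was -0.15, against 0.0034 for all genes. EPHA1 had 31.3, 27.1 and 27.7 CPM with DOX and RepSox, against 36.2, 39.1 and 34.2 CPM with RepSox without DOX, a log2 fold change of -0.34 ± 0.0842 (SE, edgeR adjusted p = 0.0898), with no overlap between the groups. ZEB1 itself was 2.98-fold higher in the cells with DOX in this comparison. This count depended on single libraries. Without replicate 1 of DOX with RepSox 1670 genes were called, among them EPHA1, EPHB6 and EPHB4 (edgeR adjusted p = 0.00822, 0.0188 and 0.0463, all lower with DOX). Without replicate 2 of DOX with DMSO, 216 genes were called, and EPHA1 was among them (edgeR adjusted p = 0.0341). Without replicate 2 of DOX with RepSox the count was 27, and it was 41 without replicate 3 of that group. It was 36, 41 and 43 without replicate 1, 2 or 3 of RepSox without DOX. EPHA1 was also called with no filter on low counts and by DESeq2 (adjusted p = 0.00873 and 0.0122).

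The difference between both DOX effects was tested as an interaction, in which 4 of the 9 genes passed (1 higher and 3 lower), against 22.6% of all 16978 genes (13% higher and 9.61% lower). The median was 0.10, against 0.0133 for all genes. EPHA1 had a DOX effect 2.71 ± 0.128 higher on the log2 scale with RepSox than with DMSO (SE, edgeR adjusted p = 3.35e-11). For EPHB3 the DOX effect was lower with RepSox, by -1.17 ± 0.157 (SE, edgeR adjusted p = 2.34e-05). EFNB2 and EPHA2 gave smaller differences of -0.44 ± 0.0959 and -0.37 ± 0.106 (SE, edgeR adjusted p = 0.00254 and 0.0176). The EPHA2 difference was lost without replicate 3 of DMSO without DOX (edgeR adjusted p = 0.0517), and EPHB4, at 0.20 ± 0.101 (SE, edgeR adjusted p = 0.181), was called without replicate 2 of DOX with DMSO (0.0233). EPHB6 had a difference of 0.01 ± 0.128 (SE, edgeR adjusted p = 0.972). ZEB1 counts, which may or may not include the inducible copy, were 44.3-fold higher with DOX in DMSO and 2.98-fold higher with DOX in RepSox. Their difference in the same test was -3.90 ± 0.147 (SE, edgeR adjusted p = 2.85e-12). The part of ZEB1 in the differences of these genes was not tested.

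Over the 12 HT-29 libraries, the order of the groups differed from gene to gene. EPHA1 ran from DMSO without DOX down through RepSox without DOX and DOX with RepSox to DOX with DMSO, and no neighbours in that order overlapped. EPHB3 was highest with DOX and DMSO and lowest with DMSO without DOX, and its 2 RepSox groups between them overlapped. EPHA2 and EFNB2 shared 1 order, highest with DOX and DMSO, then DMSO without DOX, RepSox without DOX and DOX with RepSox, with no overlap between neighbours. EPHB6 ran from DMSO without DOX through DOX with DMSO to the RepSox groups, which overlapped each other. EPHB4 was highest with RepSox without DOX and lowest with DOX and DMSO, with overlap between the other 2 groups. EPHB2 was highest with DOX and RepSox and lowest with DMSO without DOX, and EPHB2, EFNB1 and EFNA1 had overlapping neighbours throughout.

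The 2 genes with the widest range of group means were EPHA1 (3.06 on the log2 scale) and EPHB3 (1.26). Over the 12 HT-29 libraries, the genes most like EPHA1 in log2(CPM + 1) among 10521 with a mean of at least 5 CPM were PROM2 (Pearson r = 0.998), IQANK1 (0.998) and CBLC (0.997). Those most like EPHB3 were P3H1 (0.984), FAM131B (0.981) and HEXA (0.979). These are descriptions over 12 libraries that share 4 groups, so that any gene with the same group pattern scores high.

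SW620 was then examined for RepSox. EPHB6 rose 2.30-fold, and EFNB2, EPHA4, EFNB1, EPHB3 and EPHB2 rose by less. Of 10 genes, 6 rose and 0 fell, while 19.5% of 17147 genes were called (10.2% higher and 9.24% lower). At an unadjusted p below 0.05 edgeR also gave 0 lower genes, and DESeq2 called 6 higher and 0 lower. The median log2 fold change was 0.22, against -0.0070 for all genes. The summed epithelial markers moved in the same libraries, at 9209 to 9836 CPM with RepSox and 6242 to 6679 CPM with DMSO, and their part in these changes was not tested.

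EPHB6 had 459, 433 and 456 CPM with RepSox, against 208, 197 and 181 CPM with DMSO. The groups were far apart, and the log2 fold change was 1.20 ± 0.0482 (SE, edgeR adjusted p = 1.29e-14), or 2.30-fold. Among 10838 genes that reached 5 CPM in either group, 28 rose by more. EPHB6 (ENSG00000106123.11) lies at chr7:142855061-142871094 on the plus strand in GENCODE 29. EFNB2 had 186, 186 and 190 CPM with RepSox, against 128, 126 and 139 CPM with DMSO, a log2 fold change of 0.51 ± 0.0471 (SE, edgeR adjusted p = 1.24e-08). EPHA4, a receptor that binds ligands of both classes, had 47.3, 46.8 and 47.1 CPM with RepSox, against 35.1, 35.3 and 39.5 CPM with DMSO, a log2 fold change of 0.36 ± 0.0595 (SE, edgeR adjusted p = 7.65e-05). For these 3 genes no library with RepSox was below any with DMSO.

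EFNB1 had 45.6, 43.7 and 45.0 CPM with RepSox, against 38.5, 38.5 and 38.2 CPM with DMSO, a log2 fold change of 0.22 ± 0.0549 (SE, edgeR adjusted p = 0.00541). EPHB3 had 37.1, 38.2 and 35.7 CPM with RepSox, against 33.9, 30.6 and 31.2 CPM with DMSO, a log2 fold change of 0.21 ± 0.0615 (SE, edgeR adjusted p = 0.0147). EPHB2 had 160, 159 and 164 CPM with RepSox, against 144, 145 and 143 CPM with DMSO, a log2 fold change of 0.16 ± 0.0431 (SE, edgeR adjusted p = 0.01). None of these groups overlapped, and neither did those of EPHA2, which was not called. The share of all genes without overlap in SW620 was not computed. The EFNB1 call held without each single library, whereas those of EPHB3 and EPHB2 did not. EPHB3 was lost without RepSox replicate 1 or 2 (edgeR adjusted p = 0.0587 and 0.0967) or DMSO replicate 2 (0.088), and EPHB2 without RepSox replicate 3 (0.0505). In a fit of all 18 libraries EFNB1, EPHB3 and EPHB2 were lost (edgeR adjusted p = 0.0852, 0.132 and 0.173). EPHA2, EPHB4 and EFNA1 had log2 fold changes of 0.07 ± 0.0439, 0.12 ± 0.0798 and -0.11 ± 0.0813 (SE, edgeR adjusted p = 0.263, 0.327 and 0.381). EPHA1, at 0.685 to 0.985 CPM with RepSox and 0.383 to 0.694 CPM with DMSO, had 0.49 ± 0.314 (SE, edgeR adjusted p = 0.31). ZYX, which overlaps EPHA1, rose by 0.70 (edgeR adjusted p = 8.09e-10).

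**Figure D4:**
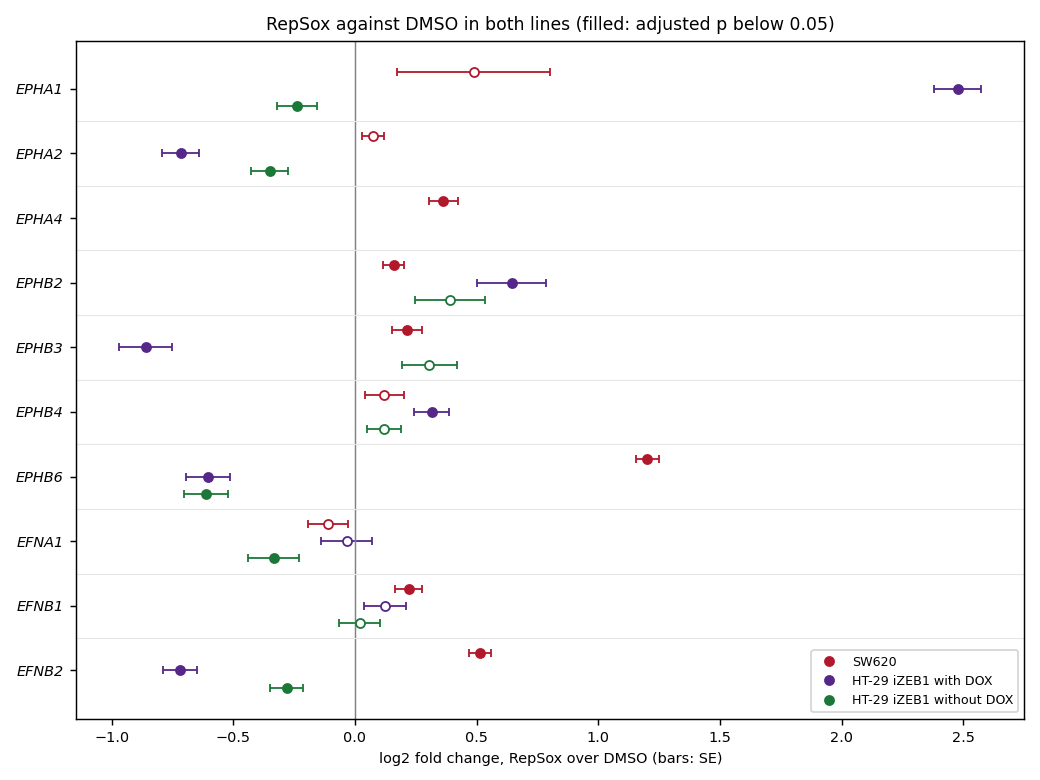
Log2 fold change of RepSox over DMSO in SW620, in HT-29 iZEB1 with DOX and in HT-29 iZEB1 without DOX, with SE as bars, and filled points for an edgeR adjusted p below 0.05. EPHB6 and EFNB2 sit right of 0 in SW620 (1.20 and 0.51) and left of 0 in both HT-29 settings. EPHA4 is shown in SW620 alone.

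The response to RepSox differed between the lines for 3 of the 10 genes, all with a higher change in SW620 than in HT-29 iZEB1 without DOX, while 10.4% of 19107 genes differed (5.39% higher and 4.99% lower). The fitted value of EPHA4 in this test is not given, since HT-29 libraries held 0 to 3 of its counts. At an unadjusted p below 0.05, 4 genes were higher and 0 lower, and DESeq2 called 4, the added gene being EPHA1 (DESeq2 adjusted p = 0.028, edgeR adjusted p = 0.0711). The median difference over the 10 genes was 0.32, against -0.0206 for all genes. The withheld value of EPHA4, which rests on those 0 to 3 counts, is included in that median. EPHB6 differed by 1.81 ± 0.115 on the log2 scale, EFNB2 by 0.79 ± 0.0849 and EPHA2 by 0.42 ± 0.0954 (SE, edgeR adjusted p = 7.61e-11, 4.24e-07 and 0.00465). EPHB6 and EFNB2 rose with RepSox in SW620 and fell with it in HT-29 iZEB1. EPHA2 fell in HT-29 iZEB1 and had a log2 fold change of 0.07 in SW620.

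The lines themselves were compared in DMSO without DOX. All 10 genes differed, 6 higher and 4 lower in SW620, while 76.6% of 19107 genes were called (40.1% higher and 36.5% lower). The median log2 fold change was 0.93, against 0.0596 for all genes. EPHA4 entered this test through the SW620 libraries alone, so that it had to differ. The count of 6 higher genes and the median of 0.93 both include EPHA4, so its part in them was set by the filter.

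Among the 10 genes, the receptors EPHA4, EPHA1, EPHB2 and EPHB4 gave the widest differences. The place of EPHA4 in this order rests on the 0 to 3 counts of its HT-29 libraries and was set in part by the filter. EPHA1 had 0.383, 0.694 and 0.679 CPM in SW620, against 42.2, 45.6 and 40.5 CPM in HT-29 iZEB1, and was 72.7-fold lower in SW620 (log2 fold change -6.18 ± 0.142 SE, edgeR adjusted p = 2.25e-22). EPHB4 had 17.8, 19.3 and 15.3 CPM in SW620, against 274, 271 and 248 CPM in HT-29 iZEB1, and was 15.1-fold lower (-3.92 ± 0.0830 SE, edgeR adjusted p = 4.34e-23). Its overlapping neighbour SLC12A9 was 5.005-fold lower. EPHB2 had 144, 145 and 143 CPM in SW620, against 3.57, 4.10 and 3.91 CPM in HT-29 iZEB1, and was 37.3-fold higher (5.22 ± 0.0943 SE, edgeR adjusted p = 1.78e-24). These groups were separated in every library, and the share of all genes separated in this way was not computed.

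EPHA4 had 1374, 1373 and 1569 counts in SW620, against 0, 0 and 3 counts in HT-29 iZEB1. The ratio of the scaled sums was 1296, with a 95% exact counting interval of 443 to 6287 that covers counting error only. Smaller differences had EPHB3, 4.20-fold higher, EPHB6 and EFNB2, both 2.38-fold higher, and EPHA2, 1.52-fold higher in SW620 (log2 fold changes 2.07, 1.25, 1.25 and 0.61, edgeR adjusted p = 6.26e-16, 4.48e-13, 1.09e-15 and 1.28e-08). EFNB1, at 38.5, 38.5 and 38.2 CPM in SW620 and 275, 261 and 238 CPM in HT-29 iZEB1, was 6.72-fold lower (-2.75 ± 0.0817 SE, edgeR adjusted p = 4.31e-20). EFNA1, the A-class ligand, was lower in SW620 (-0.27 ± 0.0975 SE, edgeR adjusted p = 0.0152), and with scaling to library totals this call was lost (0.181).

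A further 12 family genes were listed beside the members. EPHA5, EPHA6 and EPHA7 had 0 counts in all 18 libraries, which allows up to 0.0734 to 0.0863 CPM per library at a floor of 3 counts. EFNA5, an A-class ligand, held 1192 to 1700 counts in HT-29 libraries and 4 to 10 in SW620 libraries, and EPHA3 held 66 to 110 counts in SW620 and 0 in HT-29. Of these 12 genes, 5 were tested in HT-29 iZEB1. With DOX in DMSO 0 rose and 3 fell, with a median log2 fold change of -0.66. EFNA2 fell by 0.83 ± 0.105 and EFNA4 by 0.40 ± 0.126 (SE, edgeR adjusted p = 4.2e-06 and 0.0163), and EFNA4 shares 189 exon bases with a readthrough gene, so its count is uncertain. With RepSox in cells with DOX, 2 rose and 1 fell, and EFNA2 rose by 0.48 ± 0.106 (SE, edgeR adjusted p = 9.23e-04). In SW620, 0 of 7 tested were called for RepSox. Of all genes tested, 40.4% were called for DOX in DMSO, 52.2% for RepSox with DOX and 19.5% for RepSox in SW620.

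Adaptors and kinases that carry the forward signal were read from a list of 37 genes, 32 of them tested in HT-29 iZEB1. With DOX in DMSO, 10 rose and 8 fell (median log2 fold change 0.04, against 0.0020 for all genes). SH2D3A, an SH2 adaptor, and GRB7, an SH2 adaptor of receptor kinases, had log2 fold changes of -2.43 ± 0.119 and -1.96 ± 0.104 (SE, edgeR adjusted p = 1.03e-11 and 3.17e-11). FYN, a Src-family kinase, rose by 1.42 ± 0.0891 and the adaptor GRB10 by 0.77 ± 0.0810 (SE, edgeR adjusted p = 3.36e-10 and 3.64e-07). With RepSox in cells with DOX, 8 rose and 7 fell (median -0.10), with GRB7 up by 1.58 ± 0.104 and SH2D3A up by 1.45 ± 0.120 (SE, edgeR adjusted p = 4.73e-10 and 1.04e-08). The lipid phosphatase INPPL1, which binds EphA2, fell by 0.89 ± 0.0663 (SE, edgeR adjusted p = 2.49e-09). Without DOX, RepSox raised 5 and lowered 5. SH2D3A was lower there, at 25.3 CPM with RepSox without DOX and 41.4 CPM with DMSO without DOX. In SW620, RepSox raised 5 and lowered 3 of 31, and between the lines 8 were higher and 23 lower in SW620 of 33. Part of the counts between the lines was set by the filter, since some genes passed it through 1 line alone. TIAM1 had 28.0 CPM in SW620 with DMSO and 0 in HT-29 iZEB1 with DMSO without DOX, and PTPRO had 0 and 14.3 CPM. Over all genes tested, 40.4% were called for DOX in DMSO, 52.2% for RepSox with DOX and 25.3% for RepSox without DOX. The shares were 19.5% for RepSox in SW620 and 76.6% between the lines (40.1% higher and 36.5% lower).

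Genes of reverse signalling and ligand shedding numbered 16. With DOX in DMSO, 5 rose and 4 fell (median log2 fold change 0.04). PICK1, a PDZ protein that binds ephrin-B tails, fell by 0.91 ± 0.0796 and the tight junction scaffold TJP1 rose by 0.46 ± 0.0586 (SE, edgeR adjusted p = 3.37e-08 and 4.49e-06). With RepSox in cells with DOX, 4 rose and 8 fell (median -0.18), PICK1 up by 0.76 ± 0.0798 and TJP1 down (-0.65 ± 0.0587, both SE, edgeR adjusted p = 2.41e-07 and 3.15e-08). RepSox without DOX raised 0 and lowered 4. In SW620, RepSox raised 2 and lowered 1 of 15 (median -0.0034), with the raft protein FLOT1 up by 0.86 ± 0.0492 (SE, edgeR adjusted p = 3.35e-12). Between the lines, 2 were higher and 11 lower in SW620. All 16 were tested there but only 15 in SW620 alone, so part of these counts may have been set by the filter. The shares of all genes called were 40.4% for DOX in DMSO, and 52.2% and 25.3% for RepSox with and without DOX. They were 19.5% for RepSox in SW620 and 76.6% between the lines (40.1% higher and 36.5% lower).

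WNT targets of the crypt base were listed because EphB2 and EphB3 belong to that programme in mouse crypts. Of 16 tested with DOX in DMSO, 7 rose and 3 fell (median log2 fold change 0.04). SOX4 rose by 1.40 ± 0.0567, AXIN2, a feedback inhibitor of the pathway, by 1.07 ± 0.0674 and the stem cell receptor LGR5 by 0.97 ± 0.0710 (SE, edgeR adjusted p = 7.1e-13, 3.5e-10 and 2.89e-09). MYC went the other way, at 123 ± 10.6 CPM with DOX and DMSO against 208 ± 4.86 CPM with DMSO without DOX (SD, n = 3). With RepSox in cells with DOX, 7 rose and 6 fell (median 0.0117). AXIN2 changed by -1.91 ± 0.0696 and SOX4 by -1.43 ± 0.0567, and MYC rose by 1.60 ± 0.0665 (SE, edgeR adjusted p = 2.22e-13, 6.93e-13 and 1.22e-12). LGR5 averaged 94.9 ± 4.01 CPM with DOX and RepSox and 78.2 ± 5.40 CPM with DOX and DMSO (SD, n = 3). With RepSox without DOX, 5 rose and 3 fell. Among the receptors of this programme, EPHB3 rose with DOX in DMSO, and EPHB2 had a log2 fold change of 0.02. In SW620, RepSox raised 7 and lowered 9 of 18 (median -0.15), and 12 were higher and 4 lower in SW620 than in HT-29 iZEB1. Genes that entered the test between the lines through 1 line alone had to differ, so part of these counts was set by the filter. TNFRSF19 was among them, at 16.9 CPM in SW620 with DMSO and 0.0188 CPM in HT-29 iZEB1 with DMSO without DOX. Among all genes tested, 40.4% were called for DOX in DMSO, and 52.2% and 25.3% for RepSox with and without DOX. For RepSox in SW620 the share was 19.5%, and between the lines it was 76.6% (40.1% higher and 36.5% lower).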

How the data were processed

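RNA-seq gene counts of 18 libraries (6 groups of 3, from the labels) were used. The deposited table holds whole-number counts per gene symbol, not normalised. The submitters' processing notes name GRCh38.p13, HISAT2 2.2.0, FastQC 0.11.9, DESeq2 1.34.0 and featureCounts 2.0.0. Settings, strandedness and annotation release were not given in the sources used here, so reads of overlapping genes on opposite strands cannot be told apart. Coordinates and exon lengths came from GENCODE 29 on GRCh38, matched by symbol.

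Counts were fitted by edgeR 4.0.16 (R 4.3.3) with TMM scaling, filterByExpr (minimum count 10), the quasi-likelihood test and Benjamini-Hochberg adjusted p-values over each fitted table, called below 0.05. The 12 HT-29 iZEB1 libraries (16978 genes), the 6 SW620 libraries (17147) and all 18 (19107, for differences between lines) were fitted by group. SE is the absolute unshrunken log2 fold change over the square root of F. The printed fold change carries edgeR's prior count. Between replicates, chi-square per degree of freedom was 3.93 to 42.6, so that none matched within sampling noise ( genes with at least 20 counts in a pair). The scripts were tested on simulated data. Alternatives were RLE scaling, library totals, no filter, DESeq2 1.42.0, a replicate block, all 18 libraries in one fit and leaving out each library.

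The members and lists were chosen with earlier results of these data known. All 10 members are named. Of each list, up to 4 called genes with at least 5 CPM and the largest change could be named. A result for 1 list gene is not reported here. The marker lists were read as levels.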

Additional observations from a re-analysis of the deposited data

Results flagged for a closer look

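The effect of DOX in HT-29 iZEB1 differed between cells with RepSox and cells with DMSO for 4 genes, by an interaction test over all genes (edgeR). The difference was 2.715 ± 0.128 on the log2 scale for EPHA1 (SE, edgeR adjusted p = 3.35e-11), -1.167 ± 0.157 for EPHB3 (2.34e-05), -0.4375 ± 0.0959 for EFNB2 (0.00254) and -0.3659 ± 0.106 for EPHA2 (0.0176). ZEB1 counts differed by -3.896 ± 0.147 in the same test (SE, edgeR adjusted p = 2.85e-12), and their part was not tested.

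The effect of RepSox differed between SW620 and HT-29 iZEB1 without DOX for 3 genes. The difference was 1.806 ± 0.115 for EPHB6 (SE, edgeR adjusted p = 7.61e-11), 0.788 ± 0.0849 for EFNB2 (4.24e-07) and 0.4177 ± 0.0954 for EPHA2 (0.00465). EPHB6 and EFNB2 had opposite directions in the lines.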

How the results depend on the processing

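Of 425 member values under settings other than leaving out a library, 406 kept direction and side of the threshold, 8 lost and 8 gained a call, and 3 reversed. Of 942 values with a library left out, 884 kept both, 29 lost and 11 gained a call, and 18 reversed. With library totals, 2 genes fell with DOX in DMSO, and the EPHB6 interaction was -0.045. For DOX in RepSox, 584, 293 and 162 genes were called with no filter, by DESeq2 and in one fit of 18, against 81, and 1 member was lower with no filter and by DESeq2. RepSox without DOX raised 2 members by DESeq2 and in the fit of 18. That fit called 2019 genes and 3 higher members for RepSox in SW620. The EPHB4 difference between lines was 0.0189 with RLE scaling and by DESeq2 (0.01885), against -0.0063. The cause was not tested. The share of calls that were higher was 59.5% with library totals and 47.6% with TMM for DOX in DMSO, 47% and 57.4% for the interaction, and 39.5% and 52.5% for RepSox in SW620. For DOX in RepSox it was 34.1% with no filter, 31.4% by DESeq2, 11.6% to 39.7% with single libraries left out, and 19.8% with TMM, the filter, edgeR and all 12 libraries. Library totals moved the median of all genes between the lines to 0.18.

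With single libraries left out, higher members ranged from 1 to 3 and lower ones from 2 to 5 for DOX in DMSO, from 0 to 2 and 3 to 5 for RepSox without DOX, lower ones from 0 to 3 for DOX in RepSox (27 to 1670 genes called), and higher ones from 1 to 2 for the interaction. Values that changed sign ranged from -0.13 to 0.085 (EPHB2, DOX in DMSO), -0.13 to 0.061 (EFNA1, RepSox with DOX), -0.035 to 0.069 (EFNB1, RepSox without DOX), -0.047 to 0.14 (EFNA1, DOX in RepSox), -0.10 to 0.10 (EPHB6, interaction) and -0.083 to 0.073 (EPHB4, between lines).

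A replicate block gave 6955 genes for DOX in DMSO, 8948 for RepSox with DOX and 2848 for RepSox in SW620. Replicate numbers were not taken as pairing libraries, since the labels do not say that they are shared batches. Of 18 same-numbered HT-29 pairs, 8 correlated above 0.1 (range -0.548 to 0.407, median 0.0858), against 10 of 36 other pairs (median -0.0487). As a hint from the data, 17 of 36 HT-29 checks and 0 of 6 SW620 checks matched a library best with its own number, and 1 of the 3 libraries in each check has that number.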
